A study of Mus musculus with 3 samples.

Results

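The cells described here are the 546 untreated mouse embryonic stem cells with the most transcripts of 6 mitotic genes, out of 2187 cells of the control library and 6480 cells in the whole series. They were set against the 547 control cells with the fewest such transcripts. A barcode counted as a cell when it held at least 15000 unique molecular identifiers (UMIs, each standing for 1 captured RNA molecule) and 1 to 20% of its UMIs came from mitochondrially encoded genes. Each cell then received a mitotic score, the summed UMIs of Ccnb1, Cdc20, Plk1, Aurka, Cenpf and Ube2c per 10000 UMIs of that cell. The members were thus chosen by these UMI counts: cells were ranked by the score and divided into 4 groups of equal size, score groups 1 to 4. Members of group 4 are called high-score cells and members of group 1 low-score cells. The score is a continuous measure, so group 4 is a range of it and not a separate cell type.

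The cells were E14, a line of 129/Ola background, grown on gelatin with serum and leukemia inhibitory factor, which keeps embryonic stem cells undifferentiated. At 24 h after seeding, the control culture was given ethanol at 0.007% for 6 h. The other cultures of the series received 250 µg/mL cycloheximide, which blocks translation elongation, in the same ethanol for 3 h (library chx_3h) or 6 h (library chx_6h). All cells were detached with trypsin, frozen and thawed before capture, and libraries were made with a 3′ chemistry that reads polyadenylated RNA. There was 1 library per group. No test between cells was therefore made, and every interval below covers counting error only and says nothing of the spread between cultures.

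As background, a dividing cell copies its DNA in S phase and then separates the copies in mitosis, with a gap phase before each. Transcripts for mitotic kinases, the spindle and the machinery that destroys cyclins accumulate in G2 and peak near mitosis. Replication-dependent histone transcripts accumulate in S phase and are destroyed when DNA synthesis ends. They end in a stem-loop and mostly lack a poly(A) tail, so a poly(A)-based assay reads only the part of them that carries one. Embryonic stem cells are known for a short G1 and a large share of cells in S phase.

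The control library held 127601369 UMIs, of which 87.3% lay in the 2187 cells. A further 62 barcodes with enough UMIs were left out for under 1% mitochondrial UMIs, and 0 exceeded 20%. Control cells shared 3 barcodes with chx_3h and 3 with chx_6h. Median UMIs per cell were 36307 in low-score cells, 41037 in group 2, 47203 in group 3 and 51280 in high-score cells. Genes per cell, with every cell thinned to 15000 UMIs, had medians of 3704, 3736, 3753 and 3779 in the same order, against 5583, 5868, 6187 and 6557 unthinned. The mitochondrial share had medians of 4.73%, 4.69%, 4.53% and 4.40%. No doublets were removed. Cells above 2 times the median UMIs numbered 26, 44, 90 and 52 in the 4 groups.

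Levels below are CPM, that is UMIs summed over the cells of a group, scaled to a total of 1000000 UMIs. A ratio is the log2 of CPM in high-score cells over CPM in low-score cells. CPM describes the makeup of the RNA and not its amount per cell. In UMIs per cell, every log2 ratio is higher by 0.39, because high-score cells held more UMIs. That shift turns the median of replication and of early G1 genes from below 0 to above 0, and leaves the median of histone genes below 0. Genes whose mean over all control cells reached 10 CPM were compared, and a gene was called higher or lower past a 1.3-fold difference. Where 4 levels are given they run from group 1 to group 4, and where 2 are given they are those of low-score and high-score cells. Values in parentheses after levels are the log2 ratio and its exact 95% counting interval.

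The 6 score genes selected the cells, so their values describe the choice and were not tested. The score had a median of 5.94 UMIs per 10000 in low-score cells (range 0.488 to 7.70), 9.58 in group 2, 13.9 in group 3 and 20.5 in high-score cells (16.9 to 45.0). The lowest high-score cell scored 16.9136 and the next cell below it 16.9023, and 277 cells lay within 10% of that limit. The highest low-score cell scored 7.698 and the next cell above it 7.703. After thinning to 15000 UMIs per cell, 467 of the 546 cells were still in group 4.

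Ube2c, the ubiquitin-conjugating enzyme that works with the anaphase-promoting complex (APC/C), was at 153, 284, 493 and 761 CPM from group 1 to group 4. Cenpf, a kinetochore protein, was at 113, 192, 264 and 446 CPM. Ccnb1, the cyclin that activates Cdk1 at mitotic entry, was at 129, 176, 228 and 328 CPM. These values were ordered along the score, as the choice of cells requires. Plk1, a kinase of mitotic entry and spindle assembly, was at 48.4, 85.3, 128 and 176 CPM. Aurka, the centrosomal Aurora kinase, was at 30.5, 56.7, 89.0 and 129 CPM. Cdc20, the activator of the APC/C, was at 114, 170, 208 and 279 CPM. Part of such a difference comes from scoring and measuring on the same UMIs. With the score taken from a random part of each cell's UMIs and the values from the rest, log2 ratios moved from 2.31 to 2.13 for Ube2c, from 2.08 to 1.83 for Aurka, from 1.98 to 1.72 for Cenpf, from 1.87 to 1.63 for Plk1, from 1.35 to 1.13 for Ccnb1, and came to 1.09 for Cdc20.

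The promoters of these genes are shown because G2 and M phase genes are known to share 2 short elements, the cell cycle homology region (CHR, searched as TTTGAA or TTCGAA) and the CCAAT box. Both strands were searched in RefSeq promoter sequences of GRCm38.p6, from 250 bases before to 50 bases after the annotated start, and matches of different motifs may share letters at their ends. Of the 6 score genes, 5 held a CHR match within 100 bases before the start or after it, all but Ccnb1, and 6 held a CCAAT match in the window. The 30-base stretches around the CHR matches follow, 5′ to 3′ on the strand of the gene, with CHR and CCAAT matches in capitals. Cdc20 is from chr4:118437344-118437373 (minus strand, match 18 bases before the start) and Ube2c from chr2:164769888-164769917 (plus strand, 29 bases before, matched on the other strand as TTCAAA). Cenpf is from chr1:189688067-189688096 (minus strand, 2 bases after the start), Plk1 from chr7:122159453-122159482 (plus strand, 30 bases after) and Aurka from chr2:172370521-172370550 (minus strand, 32 bases after). Prc1, the midzone spindle bundler described below, is from chr7:80294434-80294463 (plus strand, 5 bases before one annotated start and 30 before another).
Cdc20: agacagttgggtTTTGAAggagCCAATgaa
Ube2c: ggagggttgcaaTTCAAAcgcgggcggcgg
Cenpf: ggcggcgggcagTTTGAAtcgctcgtgctg
Plk1: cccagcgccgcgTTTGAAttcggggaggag
Aurka: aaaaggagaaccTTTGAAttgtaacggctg
Prc1: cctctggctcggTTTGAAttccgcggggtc
Ccnb1 held 2 CCAAT boxes and no match to TTTGAA or TTCGAA. Other forms of the CHR were not searched, and the stretch below holds TTTAAA, a string left out of the search. The 120 bases before the Ccnb1 start are at chr13:100786487-100786606 (minus strand).
Ccnb1: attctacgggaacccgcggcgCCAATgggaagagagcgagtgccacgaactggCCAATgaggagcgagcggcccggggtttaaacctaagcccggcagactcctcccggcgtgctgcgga

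A match is a string of letters and not a shown binding site. From 100 bases before the start onward, a CHR match stood in 9.87% of all 27025 promoters in the table and in 7.09% of the 5866 compared genes with a promoter. The share was 25.5% of the 286 genes called higher and 9.38% of the 96 genes called lower with a promoter. It was 22.4% of the 58 promoters of the histone list, whose members were lower, so the match was not limited to lists that were higher. Over the whole window, 48.3% of histone promoters held a CHR match, against 16.8% of compared genes. Of 65 mitosis genes outside the score with a promoter, 38 (58.5%) had a CHR match there. Among mitosis genes with a promoter, it was in 28 of 48 called higher, in 9 of 15 compared and not called, and in 1 of 2 under 10 CPM. Nusap1, the mitosis gene with the largest difference, had no CHR, CCAAT or E2F match in its window. Of 52 replication genes, 11.5% had a CHR match there, and 26.9% held an E2F motif (TTTCCCGC or TTTGGCGC) in the window, against 4.26% of all compared genes.

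Mitosis genes that the score did not use were higher together. Of 79 on the list, 76 reached 10 CPM and 59 of these were at least 1.3-fold higher in high-score cells, against 355 of all 7207 genes compared (4.93%). None of the 76 was lower, against 119 of all genes (1.65%). These genes were picked as known partners of the score genes in the same phase, so their direction is not independent of the choice of cells. The median log2 ratio was 0.71, beside 0.01 over all genes, and 65 of the 76 were ordered from group 1 to group 4. The list together made up 0.770% of UMIs in low-score cells and 1.195% in high-score cells. Per cell, its median was 76.3, 87.3, 101 and 120 UMIs per 10000 in the 4 groups.

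Spindle and motor genes had a median log2 ratio of 0.93, and 17 of 18 were called higher. Nusap1 (chr2:119618298-119651244 in GENCODE M21 on GRCm38), which bundles spindle microtubules, was at 36.9, 64.3, 102 and 165 CPM, a 4.47-fold difference and the largest on the list (log2 ratio 2.16, interval 2.06 to 2.27). Aspm, at the spindle poles, was at 30.4 CPM in low-score and 87.3 CPM in high-score cells. Kif15, a spindle kinesin, was the spindle gene with the smallest difference, at 66.3 and 70.1 CPM. Of 7 cytokinesis genes, 6 were called higher. Prc1, which bundles microtubules of the spindle midzone, was at 73.3, 112, 167 and 244 CPM (log2 ratio 1.73, interval 1.66 to 1.81). Cep55, which acts at the last step of abscission, was at 52.3 and 63.4 CPM, short of the 1.3-fold limit.

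Among centromere and kinetochore genes 14 of 15 were called higher, with a median log2 ratio of 0.76. Cenpe, the kinetochore kinesin, was at 63.9, 89.8, 120 and 175 CPM (1.45, 1.37 to 1.54). Spc24, of the Ndc80 complex, was at 141 and 150 CPM (0.09, 0.02 to 0.15). Of 8 checkpoint and APC/C genes, 7 were called higher. The highest was Fzr1, the APC/C activator of late mitosis and G1, at 42.3, 52.4, 72.4 and 93.0 CPM. The exception was Fbxo5, an inhibitor of the APC/C, at 110 and 133 CPM.

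Of 7 cyclin and Cdk genes, 5 were called higher. Cdk1, the mitotic cyclin-dependent kinase, was at 147, 182, 249 and 341 CPM (1.21, 1.15 to 1.26). Ccnb2, a second B-type cyclin, was at 102, 102, 104 and 121 CPM (0.25, 0.17 to 0.32), so its values nearly coincided over groups 1 to 3. Among mitotic kinases 5 of 8 were called higher. Aurkb, of the chromosomal passenger complex, was at 36.8, 47.4, 61.5 and 83.2 CPM, whereas Melk was at 52.2 CPM in low-score and 51.1 CPM in high-score cells. Plk4, which starts centriole duplication, was at 74.2 CPM in both.

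Chromosome structure genes split. Of 9, 4 were called higher. Top2a, the topoisomerase that untangles sister DNA, was at 314, 380, 477 and 641 CPM (1.03, 0.99 to 1.07). Mki67, a coat protein of mitotic chromosomes, was at 74.9, 99.6, 120 and 171 CPM (1.19, 1.12 to 1.27). Ncapd3, of condensin II, was at 63.3 and 55.9 CPM, the lowest ratio on the list (-0.18, -0.28 to -0.08). Transcription regulators of these genes had a median log2 ratio of -0.01, and only Foxm1 of 4 passed 1.3-fold, at 14.7 and 19.6 CPM. Mybl2 was at 271 and 264 CPM, and Lin54 at 11.9 and 10.7 CPM.

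**Figure D1:**
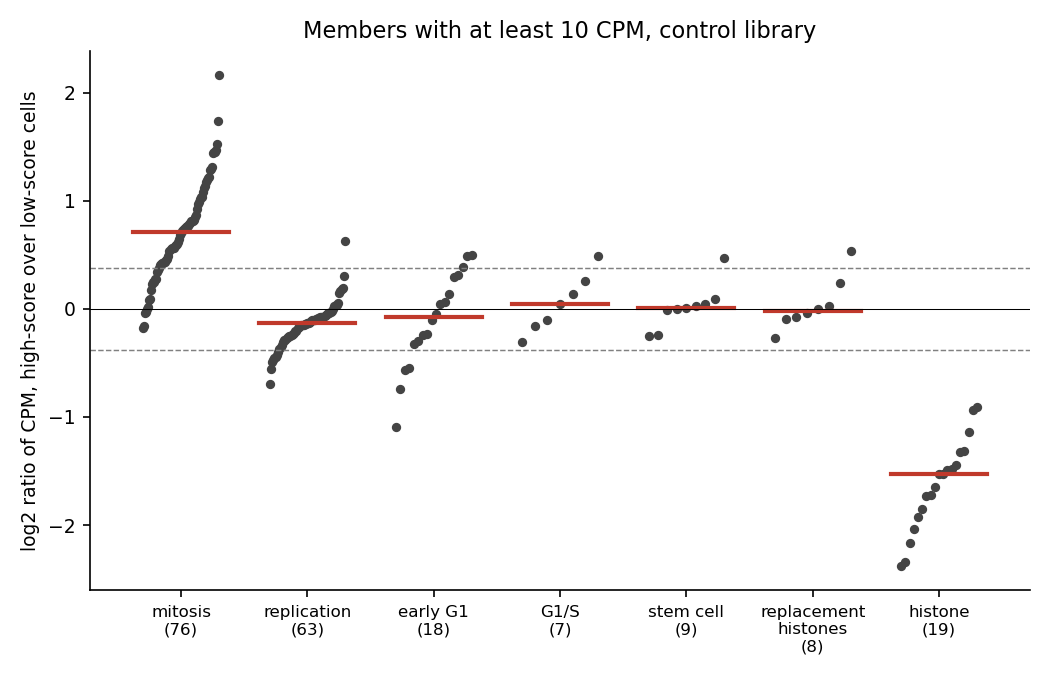
Log2 ratio of CPM in high-score over low-score cells (vertical axis) for each gene (point) of 7 lists, sorted within a list. Numbers in parentheses are genes with at least 10 CPM, red bars are medians and dashed lines mark 1.3-fold. Mitosis genes lie mostly above the upper line (median 0.71) and all 19 histone genes lie below the lower line (median -1.53).

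Histone transcripts showed the opposite and larger difference. The list of replication-dependent histone genes had 64 members, of which 61 had a UMI and 19 reached 10 CPM. All 19 were lower in high-score cells, beside 1.65% of all compared genes, and 17 of the 20 lowest ratios among all compared genes were histone genes. A gene could reach 10 CPM through low-score cells alone, so the count over these 19 was partly set by that limit. The summed CPM over all 64 members does not depend on it, and was 4449 in low-score cells, 3611 in group 2, 2377 in group 3 and 1074 in high-score cells. That is a 4.14-fold difference (log2 ratio -2.05, interval -2.07 to -2.03). With groups set within classes of UMIs per cell, so that the median depths were 43164 and 43154 UMIs, the log2 ratio was -1.83.

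The linker histone H1 gene Hist1h1b (H1f5 in RefSeq; chr13:21779883-21780625 in GENCODE M21 on GRCm38) was at 783 CPM in low-score cells (exact Poisson interval 771 to 794), 615 in group 2, 377 in group 3 and 151 in high-score cells (146 to 155). It had the lowest ratio of all compared genes, 5.20-fold lower (-2.38, -2.42 to -2.33). Its promoter held a CHR match 230 bases before the start, outside the stretch shown. It also held 3 CCAAT matches, 2 of them in the 120 bases before the start, shown here because 84.5% of the 58 histone promoters in the table held such a match, against 44.1% of all compared genes. The stretch is at chr13:21780626-21780745 (minus strand) and CCAAT matches, ATTGG on the other strand, are in capitals.
Hist1h1b: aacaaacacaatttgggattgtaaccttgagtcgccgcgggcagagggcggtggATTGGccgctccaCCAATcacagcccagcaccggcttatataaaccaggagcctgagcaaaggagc

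Hist1h2ap (chr13:21833026-21833507), an H2A gene with the most UMIs on the list, was at 2087, 1674, 1040 and 413 CPM (-2.34, -2.37 to -2.31). Hist1h2ae, another H2A gene, was at 479, 377, 247 and 107 CPM (-2.16, -2.22 to -2.11). By class, summed CPM differed most for H2A, 4.82-fold lower, and for the linker histones, 4.28-fold lower. H3 was 2.41-fold lower, H4 2.39-fold lower and H2B 2.15-fold lower. Within the small classes, Hist2h2bb (H2B) was at 18.6 and 4.88 CPM, and Hist1h2bc (H2B) at 57.1 and 30.4 CPM, the histone gene with the smallest difference above the floor (-0.91, -1.03 to -0.79). Hist1h3b (H3) was at 20.3 and 6.16 CPM, and Hist1h4i (H4) at 24.8 and 8.58 CPM. Core histone genes (H2A, H2B, H3 and H4) of 1 class are near-identical, and how shared reads were counted is not given in the sources used here. Single members are therefore less certain than the sums.

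High-score cells were not uniform in histone transcripts. Histone UMIs per 10000 had a median of 46.5 (quartiles 35.1 and 55.5) in low-score cells, 36.3 in group 2, 21.8 in group 3 and 5.67 (3.25 and 15.7) in high-score cells. Of the 546 high-score cells, 362 (66.3%) had under 10 histone UMIs per 10000 and 13 (2.38%) had over 40. Among low-score cells, 31 (5.67%) had under 10 and 357 (65.3%) over 40. The share under 10 was 8.04% in group 2 and 23.6% in group 3. Thinned to 15000 UMIs, 65.2% of high-score cells were under 10 and 63.8% of low-score cells over 40. Barcodes with 10 to 100 UMIs, taken to show RNA free in droplets, held 1694 CPM of histone transcripts, above the 1074 CPM of high-score cells. The part of free RNA in these levels was not tested.

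**Figure D2:**
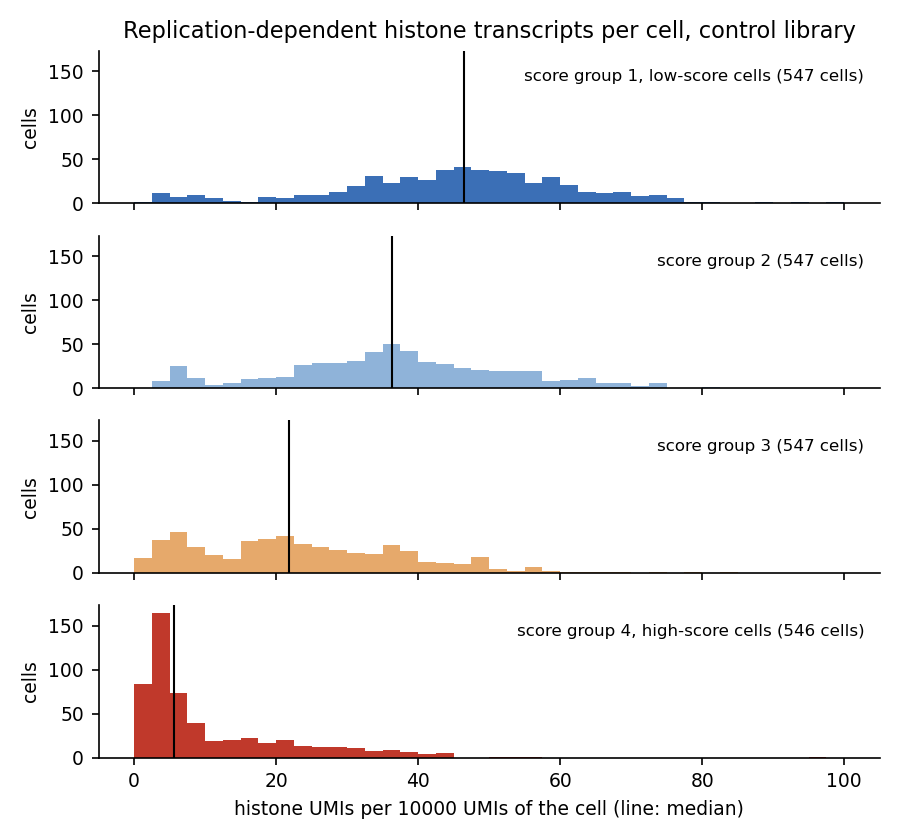
Number of control cells (vertical axis) by replication-dependent histone UMIs per 10000 UMIs of the cell (horizontal axis, bins of 2.5) in each mitotic score group, with the median as a line. Group 1 is centred on 46.5, while 66.3% of high-score cells lie under 10 and a tail reaches beyond 40.

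Divided into 10 groups of equal size by the score, summed histone CPM was ordered through all 10, from 4688 at the low end to 695 at the high end, with 1733, 1239 and 695 CPM in the last 3. Mitosis genes outside the score ran from 7293 to 12750.3 CPM over the same groups. Replication genes ran from 7435 CPM at the low end to 6481 CPM at the high end, a much smaller range. Early G1 genes stayed between 1432 and 1490 CPM.

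**Figure D3:**
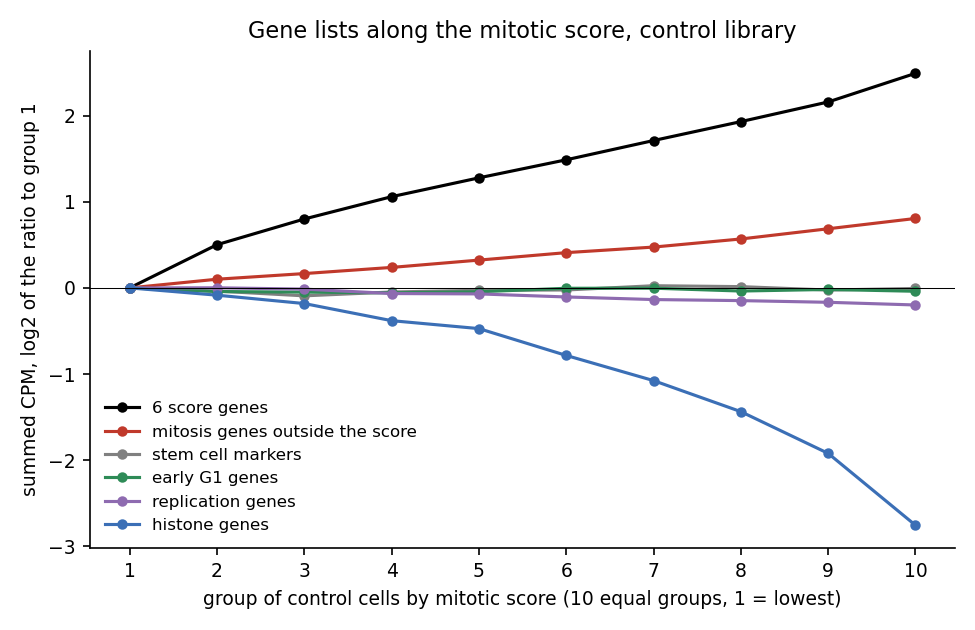
Summed CPM of 6 gene lists in 10 equal groups of control cells ordered by mitotic score (horizontal axis), as the log2 of the ratio to the first group (vertical axis, linear in log2). The score genes, which set the order, and mitosis genes are higher along the score, histone genes run from 4688 to 695 CPM, and replication, early G1 and stem cell genes stay near 0.

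Genes that act on histone transcripts differed less than the histones, with a median log2 ratio of -0.21 and 4 of 6 below 0. Slbp, the stem-loop binding protein, was at 134 and 108 CPM (-0.31, -0.38 to -0.24), within 1.3-fold. Of the 6, 1 was called higher and none lower, beside 4.93% and 1.65% of all compared genes. The 1 was Zfp473, a zinc finger protein of histone pre-mRNA processing, at 6.06, 8.18, 11.2 and 15.3 CPM (1.34, 1.06 to 1.62). It reached the floor of 10 CPM only through groups 3 and 4, so its call was partly set by that limit. Replacement histones, made outside S phase from polyadenylated transcripts, summed to 7029 CPM in low-score and 6983 CPM in high-score cells. H2afz, the most abundant of them, was at 3215 and 3139 CPM. H2afx, an H2A variant whose gene can yield both stem-loop and polyadenylated transcripts, was the 1 of 8 called higher, at 433, 510.2, 599.9 and 629 CPM (0.54, 0.50 to 0.57).

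Replication genes differed little. All 63 reached 10 CPM, 8 were called lower and 1 higher, beside 1.65% and 4.93% of all compared genes, and the median log2 ratio was -0.13. Of the 63, 53 lay below 0 and 24 were ordered downward through the 4 groups. Summed CPM was 7436, 7134, 6803 and 6598. The log2 ratio of the sums was -0.17 (-0.18 to -0.16), beside -2.05 for histone genes. In UMIs per cell the median was 0.26, beside 0.40 over all compared genes. On that scale 11 of the 63 replication genes were called higher and none lower, beside 4107 and 26 of all 7207 genes.

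Of 16 genes that license origins, Orc6 and Mcm4 were called lower. Orc6, of the origin recognition complex, was at 226, 205, 180 and 153 CPM (-0.56, -0.62 to -0.50). Mcm4, of the replicative helicase, was at 167, 150, 129 and 124 CPM (-0.43). Cdt1, which loads the helicase in G1, had the highest ratio of this group, at 129, 129, 130 and 147 CPM (0.19, 0.12 to 0.25). Among origin firing genes, Dbf4, the activating partner of the Cdc7 kinase, was the 1 replication gene called higher, at 117, 137, 152 and 181 CPM (0.63, 0.56 to 0.70). Cdc7 itself was at 20.6 and 16.8 CPM (-0.29, -0.47 to -0.11). Gins2, of the helicase complex, was at 119, 107, 100 and 87.9 CPM (-0.44). In CPM, the 2 partners Dbf4 and Cdc7 thus had ratios on opposite sides of 0. In UMIs per cell, where every log2 ratio is higher by 0.39, both lay above 0.

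At the replication fork, 4 of 25 genes were called lower. Pcna (chr2:132249162-132253314), the sliding clamp, was at 351 CPM in low-score cells (343 to 359), 319 in group 2, 271 in group 3 and 256 in high-score cells (251 to 262), a log2 ratio of -0.45. Wdhd1, which tethers polymerase to helicase, was at 30.4 and 21.6 CPM (-0.49), the lowest ratio of the group. Rpa1, of the single-strand binding complex, was at 103 and 74.1 CPM, and Tipin, of the fork protection complex, at 328 and 248 CPM. Pola2, a subunit of the priming polymerase, had the highest ratio at 46.3 and 48.1 CPM (0.06, -0.06 to 0.17). In chromatin assembly, Chaf1b, of the factor that places histones on new DNA, had the lowest ratio of the whole list, at 44.0, 37.4, 31.3 and 27.2 CPM (-0.70, -0.83 to -0.56). Asf1b, a histone chaperone, was at 39.5 and 45.2 CPM. None of 7 nucleotide supply genes passed 1.3-fold. Rrm2, a subunit of ribonucleotide reductase, was at 213 and 201 CPM (-0.08).

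**Figure D4:**
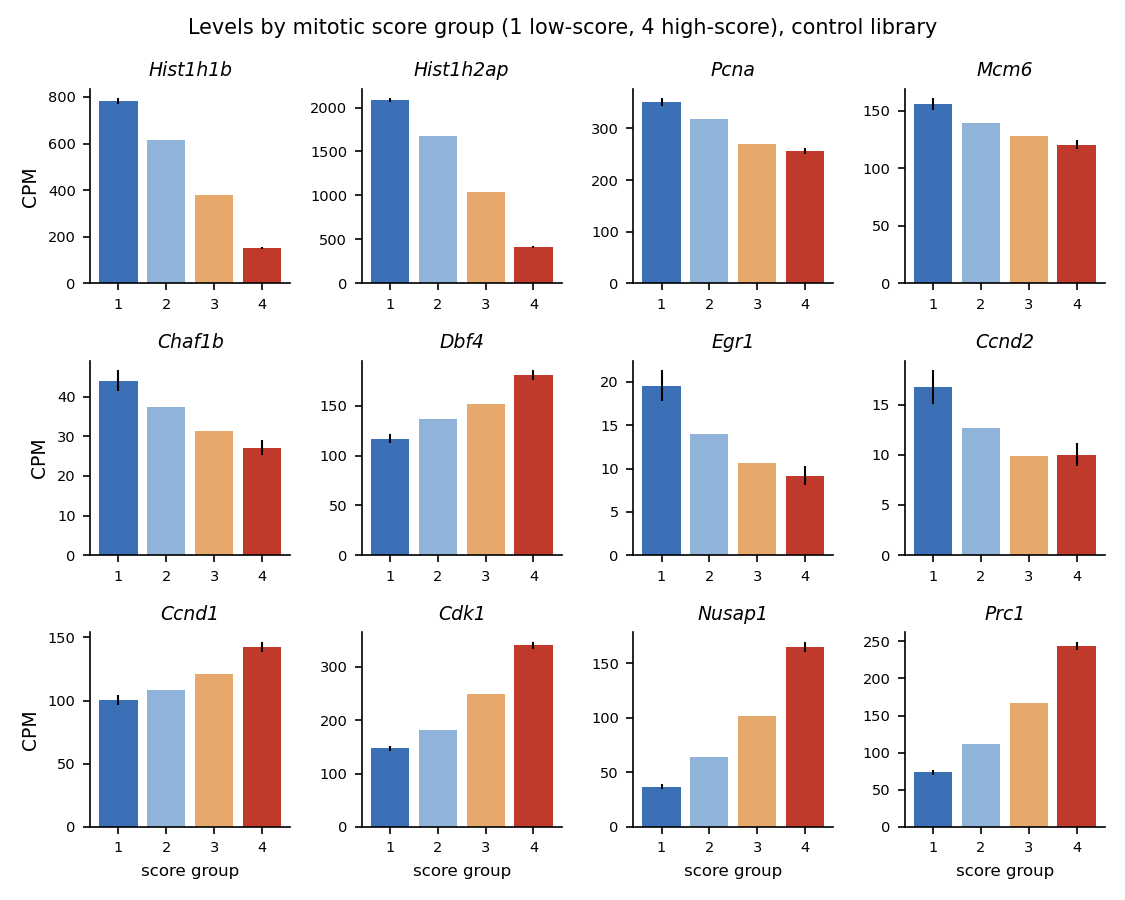
CPM (vertical axes from 0, each gene on its own scale) of 12 genes in the 4 groups of the mitotic score; error bars on groups 1 and 4 are exact 95% Poisson intervals and cover counting error only. Hist1h1b runs from 783 to 151 and Hist1h2ap from 2087 to 413, Pcna from 351 to 256, while Dbf4, Ccnd1, Cdk1, Nusap1 and Prc1 are highest in high-score cells.

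Early G1 genes, those of growth factor response and of entry into the cycle, went in both directions. Of 21, 18 reached 10 CPM, 3 were called higher and 4 lower, beside 4.93% and 1.65% of all compared genes, and the median log2 ratio was -0.08. Their sum was 1468 CPM in low-score and 1453 CPM in high-score cells, and the interval of its log2 ratio included 0 (-0.04 to 0.01). In UMIs per cell the early G1 median was 0.32, beside 0.40 over all compared genes. On that scale 8 of the 18 early G1 genes were called higher and 1 lower, beside 4107 and 26 of all 7207 genes.

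Of the immediate early genes, Egr1, Fosb and Fos were called lower. Egr1, a zinc finger factor made within minutes of growth factor signalling, was at 19.5 CPM in low-score cells (17.8 to 21.4), 14.0 in group 2, 10.7 in group 3 and 9.11 in high-score cells (8.07 to 10.2), 2.14-fold lower (-1.10, -1.32 to -0.88). Fosb, a partner of Jun in the AP-1 complex, was at 31.7, 25.3, 23.6 and 21.4 CPM (-0.57, -0.72 to -0.41). Fos, of the same complex, was at 52.6, 45.2, 49.3 and 36.0 CPM (-0.55, -0.66 to -0.43), so group 3 lay above group 2. In UMIs per cell, Egr1 was the 1 of these genes still past 1.3-fold (-0.70), with Fosb at -0.17 and Fos at -0.15. Egr1 was under the floor of 10 CPM in high-score cells, so its call was partly set by that limit. Junb, also of AP-1, was at 61.6 and 50.1 CPM and Jun at 16.2 and 12.9 CPM, both within 1.3-fold. Of 8 growth factor response genes 7 lay below 0. The exception was Mycn, a Myc family factor, at 25.8, 26.9, 31.2 and 33.7 CPM (0.38, 0.24 to 0.53), just past 1.3-fold.

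The D-type cyclins, partners of Cdk4 and Cdk6 in G1, did not move together. Ccnd1 was at 100.5, 109, 121 and 142 CPM (0.50, 0.43 to 0.57), the highest ratio on the list. Ccnd2 was at 16.7, 12.6, 9.83 and 9.99 CPM (-0.74, -0.96 to -0.52), and Ccnd3 at 263 and 254 CPM. Ccnd2 was under the floor of 10 CPM in high-score cells. It reached that floor only through cells of lower score, so its call was partly set by that limit. Cdk6 was at 17.7 and 24.9 CPM (0.49) and Cdk4 at 376 and 389 CPM (0.05). Among inhibitors of the cycle none of 5 above the floor passed 1.3-fold. Cdkn1b, an inhibitor of cyclin-dependent kinases, was highest at 20.5 and 25.4 CPM (0.31, 0.14 to 0.48), and Btg2 lowest at 35.5 and 33.0 CPM (-0.10, -0.24 to 0.03).

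Of the regulators of S phase entry, 7 of 8 reached 10 CPM, and 1 was called higher and none lower, beside 4.93% and 1.65% of all compared genes. E2f2, a transcription factor of this step, was at 17.2 and 24.1 CPM (0.49, 0.31 to 0.67), and E2f1, a related factor, at 18.2 and 14.7 CPM (-0.31, -0.50 to -0.11). Ccne1, the S phase cyclin, was at 182 and 170 CPM.

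The stem cell markers were present throughout, at 7151 CPM in low-score and 7250.3 CPM in high-score cells. Pou5f1, a core pluripotency factor, was at 527 CPM in both. Nanog, another core factor, was the 1 of 9 called higher, at 103, 115, 127 and 143 CPM (0.47, 0.40 to 0.54). The share called higher over all compared genes was 4.93%. Sox2 had the lowest ratio, at 232 and 194 CPM (-0.25, -0.31 to -0.20). Markers of other cell types were near 0. None of the 6 fibroblast, 5 primitive endoderm, 3 mesendoderm, 2 neural or 4 genes of the 2-cell-like state reached 10 CPM, and no list summed to more than 14.1 CPM in a group. Col3a1, Dcn, Lum, Zfp352 and Tcstv3 had no UMI in either group. Zscan4c and Zscan4d, markers of the 2-cell-like state, had 23 and 40 UMIs in high-score cells and 0 in low-score cells. All 63 lay in 1 of the 546 high-score cells, so they describe that cell and not the group.

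Beyond these lists, 288 of the 355 genes called higher and 88 of the 119 called lower were on no list. The 10 with the highest ratios were Fam83d, Pimreg, Cenpl, Ckap2l, Miip, Hyls1, Arl6ip1, Depdc1a, Tuba1c and Kpna2, with log2 ratios from 1.99 to 1.42. Fam83d, which brings a kinase to the spindle, was at 7.86, 11.3, 19.8 and 31.2 CPM. Cenpl is a centromere protein, and was at 4.30, 8.70, 10.4 and 15.5 CPM, under the floor in groups 1 and 2. The same held for Miip, at 4.47, 7.15, 11.5 and 15.9 CPM, and Hyls1, at 4.90, 7.74, 12.3 and 17.4 CPM. Cenpl, Miip and Hyls1 reached 10 CPM only through groups 3 and 4, so their place was partly set by that limit. Arl6ip1, an endoplasmic reticulum shaping protein, was the most abundant of the 10, at 164, 215, 316 and 460 CPM (1.49, 1.44 to 1.54). Kpna2, a nuclear import receptor, was at 41.8 and 111 CPM, and Tuba1c, an alpha-tubulin, at 57.2 and 153 CPM.

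The 10 lowest were Gm17251, Gm13075, Sag, Aldh1a3, Zfp143, Dscc1, Ung, 1110002L01Rik, Lhfpl4 and AY036118, with log2 ratios from -1.12 to -0.68. None of these differences exceeded 2.18-fold, less than that of Hist1h1b. The largest was that of Gm17251, at 13.8 and 6.32 CPM, under the floor of 10 CPM in high-score cells. Gm17251 reached that floor only through cells of lower score, so its place was partly set by that limit. Dscc1, which helps load the sliding clamp, was at 19.9, 14.7, 12.6 and 11.3 CPM. Ung, the uracil-DNA glycosylase that removes uracil from new DNA, was at 87.6, 73.0, 62.2 and 51.7 CPM (-0.76, -0.86 to -0.66). Sag, known as a photoreceptor arrestin, was at 34.3 and 18.1 CPM. Gm17251, Gm13075, Zfp143, Dscc1 and 1110002L01Rik overlap a gene on the opposite strand in the annotation, and AY036118 overlaps other annotated genes. Among the 10 highest, Ckap2l and Hyls1 also overlap genes on the opposite strand. Whether counting used strand is not given in the sources used here.

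The same division of cells was made within the libraries chx_3h (434 high-score cells) and chx_6h (638), which the choice of control cells did not use. High-score cells began at a score of 12.7 at 3 h and 10.1 at 6 h, beside 16.9 in the control. Low-score cells ended at 5.99 and 5.28, beside 7.70. The groups of the 3 libraries thus cover unlike ranges of the score. At 3 h, 400 of 7660 genes were called higher (5.22%) and 128 lower (1.67%). At 6 h, 491 of 7768 were called higher (6.32%) and 81 lower (1.04%). No difference between libraries was tested. Of the genes called higher in the control, 192 were also called higher at 3 h, which is 54.1% of the control's list and 48.0% of the 3 h list. At 6 h 182 were, 51.3% and 37.1%, and 151 genes were called higher in all 3 libraries. Of the genes called lower in the control, 41 were also lower at 3 h (34.5% of the control's list and 32.0% of the 3 h list) and 22 at 6 h (18.5% and 27.2%).

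Mitosis genes outside the score had medians of 0.57 at 3 h (56 of 77 called higher) and 0.63 at 6 h (58 of 77). The shares called higher over all genes were 5.22% and 6.32%. Ccnb2, at 102 and 121 CPM in the control, was at 98.5 and 146 CPM at 3 h and at 99.3 and 167 CPM at 6 h. Top2a was at 340.3 and 506 CPM at 3 h and at 336 and 506 CPM at 6 h, log2 ratios of 0.57 and 0.59 beside 1.03 in the control.

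Histone genes were lower in high-score cells of both treated libraries, from a higher level. Their sum was 8871 and 4195 CPM at 3 h and 9017 and 4697 CPM at 6 h, in low-score and high-score cells, beside 4449 and 1074 CPM in the control. The log2 ratios of the sums were -1.08, -0.94 and -2.05. Of 39 histone genes that reached 10 CPM in each treated library, 36 were called lower at 3 h and 38 at 6 h. The shares called lower over all genes were 1.67% and 1.04% in these 2 libraries. Hist2h3c2, an H3 gene chosen for mention after its values were seen, was called higher in both, at 12.8 and 23.0 CPM at 3 h and 17.1 and 24.8 CPM at 6 h. It was below 10 CPM in the control. Hist1h1b was at 730 and 255 CPM at 3 h and at 394 and 174 CPM at 6 h. Of high-score cells, 15.9% at 3 h and 7.37% at 6 h had under 10 histone UMIs per 10000, beside 66.3% in the control. The median score of these cells was 16.6 at 3 h and 14.7 at 6 h, beside 20.5 in the control, so they are not like sets of cells. Of low-score cells, 0.920% at 3 h and 0.626% at 6 h were under that limit, beside 5.67% in the control. Free RNA held 5008 CPM of histone transcripts at 3 h and 6065 CPM at 6 h, above the sums in high-score cells there. The part of free RNA in the treated levels was not tested.

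The 63 replication genes had medians of -0.17 at 3 h (4 called lower, 1 higher) and -0.06 at 6 h (none lower, 3 higher). The shares over all genes were 1.67% lower and 5.22% higher at 3 h, and 1.04% and 6.32% at 6 h. Orc6, Cdc6, Cdc45 and Chaf1b were the 4 called lower at 3 h, with log2 ratios of -0.41, -0.38, -0.40 and -0.43. Dbf4 was called higher in both, at 137 and 185 CPM at 3 h and at 112 and 172 CPM at 6 h. Pcna, with a control ratio of -0.45, had -0.30 (3 h) and -0.06 (6 h).

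Early G1 genes had medians of 0.23 at 3 h (3 of 17 called higher, none lower) and 0.09 at 6 h (2 of 14 higher, none lower). The shares over all genes were 5.22% higher and 1.67% lower at 3 h, and 6.32% and 1.04% at 6 h. Ccnd1 was called higher in both, with log2 ratios of 0.54 and 0.44 beside 0.50 in the control. Egr1 was at 29.1 and 25.3 CPM at 3 h (-0.21) and at 3.12 and 2.66 CPM at 6 h (-0.23), Fos at 18.1 and 22.1 CPM at 3 h (0.29) and Fosb at 12.5 and 15.0 CPM (0.27). Nanog was higher in all 3 libraries, at 146 and 204 CPM at 3 h and at 115 and 190 CPM at 6 h.

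**Figure D5:**
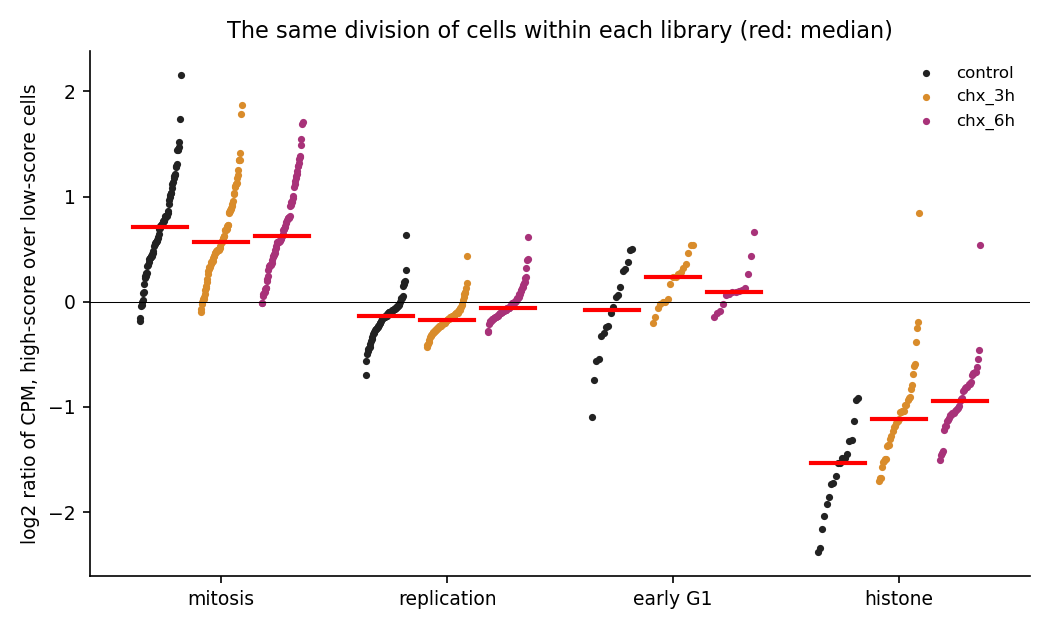
Log2 ratio of CPM in high-score over low-score cells (vertical axis), with groups set within each library, for each gene (point) with at least 10 CPM there; red bars are medians. Histone medians are -1.53 (control, 19 genes), -1.11 (3 h, 39 genes) and -0.94 (6 h, 39 genes), mitosis medians 0.71, 0.57 and 0.63. The histone medians cover unlike sets of genes, and with no floor the control median over 61 histone genes was -1.19.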

How the data were processed

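Raw UMI counts per gene and barcode were used as deposited. They were made with Cell Ranger 4.0.0 and mm10, per the submitters' processing notes, and the counting of reads shared between genes is not given in the sources used here. The matrices hold every barcode (6794880) for 32285 genes. Of the gene identifiers, 32235 matched GENCODE M21 on GRCm38, used for overlaps and gene types.

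Cells were chosen by UMIs (minimum 15000) and mitochondrial share (1 to 20%), ranked by the score and divided into 4 groups, with TMM factors from edgeR tried as an alternative. Counts were summed, scaled to CPM, and log2 ratios used a prior of 0.5 counts. Intervals are exact at 95%, Poisson for levels and conditional binomial for ratios. No doublet caller was run. The script was checked on simulated data. Named genes were the score genes, Ccnd1, Pcna, Top2a, Mki67 and Cdk1, the highest and lowest member of each list or class above 10 CPM, and the 10 highest and 10 lowest genes on no list with an interval excluding equality; other named members were chosen after their values were seen, as were promoter stretches beyond the start. The members and gene lists were chosen with earlier results of these data known. Replicate libraries and tests between libraries were not possible with 1 library per group.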

Additional observations from a re-analysis of the deposited data

Results flagged for a closer look

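The genes below were called in one direction along the mitotic score in the control and in the other direction in a treated library. With 1 library each, the difference was not tested. Of the genes called lower in the control, 4 of 111 compared at 3 h and 3 of 105 compared at 6 h were called higher there, beside 5.22% and 6.32% of all genes. Of 312 called higher in the control and compared at 6 h, 1 was called lower, beside 1.04% of all genes. These counts lie below the shares over all genes. Xaf1, an interferon-inducible gene, was at 100.3 and 72.3 CPM in low-score and high-score control cells (log2 ratio -0.47), at 27.7 and 37.8 CPM at 3 h (0.45) and at 13.6 and 26.2 CPM at 6 h (0.94). Plk2, a Polo-like kinase, was at 15.8 and 11.9 CPM in the control (-0.41), and the treated libraries gave 0.53 (3 h) and 0.42 (6 h). Col4a1, a basement membrane collagen, had a ratio of -0.44 in the control and 1.11 at 3 h, where it was at 6.92 and 15.0 CPM. The antisense gene 2810001G20Rik had ratios of -0.49 in the control and 0.39 at 3 h. The noncoding gene Gm17251 was at 13.8 and 6.32 CPM in the control (-1.12) and at 8.83 and 13.4 CPM at 6 h (0.60). Gm49756, another noncoding gene, was at 39.6 and 56.1 CPM in the control (0.50) and at 44.2 and 32.4 CPM at 6 h (-0.45). Some of these levels were under the floor of 10 CPM in low-score or high-score cells. They were Col4a1 at 3 h, 2810001G20Rik in the control (13.3 and 9.43 CPM) and Gm17251 in the control and at 6 h. Those calls were partly set by that limit.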

How the results depend on the processing

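The counts of genes called depended on the setting. Genes called higher numbered 355, and 4107 by mean UMIs per cell, 98 with a floor of 50 CPM, 4194 with no floor, 587 between the extremes of 10 equal groups, 154 between cells above and below the median score and 151 at 1.5-fold. Genes called lower numbered 119, and in the same order 26, 30, 2980, 230, 41 and 35, and 207 with cells thinned to 15000 UMIs. Replication genes called lower numbered 8, but 0 by mean UMIs per cell and 1 between cells above and below the median, while 11 in place of 1 were called higher by mean UMIs per cell. Histone genes called lower numbered 19, 7 with a floor of 50 CPM and 55 with no floor. Early G1 genes called lower numbered 4, 1 by mean UMIs per cell, 0 with a floor of 50 CPM, 7 between the extremes of 10 equal groups and 2 above against below the median, and those called higher numbered 3, 8 by mean UMIs per cell and 0 above against below the median. Mitosis genes called higher stayed within 1.5 times of 59 under the 16 alternatives, from 42 to 72. Medians ranged from 0.45 to 1.10 for mitosis, -2.17 to -0.91 for histone, -0.15 to 0.26 for replication and -0.16 to 0.32 for early G1 genes. Mean UMIs per cell gave the values above 0 for replication, and it and the division at the median did so for early G1. The summed histone ratio ranged from -2.75 to -1.21. Leaving out the 212 cells above 2 times the median UMIs kept every list count within 1.5 times. No paired analysis was possible because each group had 1 library.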
